A study of Mus musculus with 18 samples.

Results

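Hepatic gene expression of rAAV8-treated Lipa-/- mice was set against that of WT mice at 34-weeks post-injection, the comparison that asks how far the liver transcriptome of the long-term treated animals still differed from normal. Of the 18 livers sequenced in the study, 6 enter the comparison, treated mice 9, 11 and 12 and WT mice 1, 2 and 3. Of the 35441 genes in the count table, 14533 had more than 100 reads summed over the 18 livers, and all of these were tested. The treated mice carried a deletion of exon 4 of Lipa in the whole body, made with a CMV-driven Cre recombinase, and received in a tail vein an adeno-associated vector of serotype 8 with the human LIPA cDNA under the hAAT promoter, which is active in hepatocytes. The WT mice carried neither the deletion nor the vector. All were described as male C57/BL6N mice. In the labels, this time point is given as 8 months. The remaining groups were untreated Lipa-/- mice of the same time point (mice 4, 5 and 6) and WT, Lipa-/- and treated mice at 12-weeks post-injection, labelled 3 months. A gene was called where its log2 fold change exceeded 1 in size and its adjusted p value was under 0.05 in edgeR's quasi-likelihood test. Fold changes are treated minus WT on the log2 scale with a standard error (SE). The SE was derived from the test, as the size of the fold change over the square root of its F statistic. Levels are CPM, reads of the gene relative to all reads of the library after scaling between libraries.

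Lysosomal acid lipase (LAL), the product of Lipa, hydrolyses the cholesteryl esters and triglycerides that reach the lysosome with lipoproteins or through autophagy. Without the enzyme, these lipids accumulate in the lysosomes of hepatocytes and macrophages, and lipid-laden macrophages fill the liver. The fatty acids and the cholesterol that the enzyme releases feed oxidation in mitochondria and the sterol sensing system, and fatty acids are also ligands of PPARA, the nuclear receptor that controls the hepatic genes of fatty acid oxidation.

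The 6 libraries held 19132387 to 25233980 reads assigned to genes, so that 3 reads, taken as the floor of detection, corresponded to 0.117 to 0.177 CPM. WT mouse 1 stood apart from its group: its log CPM correlated with WT mice 2 and 3 at 0.954 and 0.957 across genes, against 0.983 between those 2, and treated mice 9 and 11 correlated with WT mice 2 and 3 at 0.968 to 0.977. Treated mouse 12 also stood apart: its log CPM correlated with treated mice 9 and 11 at 0.947 and 0.962, against 0.975 between those 2. It had neutrophil transcripts far above the other 5 mice. Untreated Lipa-/- mouse 4, which enters the shared estimate of the spread but not the comparison, had 1.61 CPM over the Y-linked genes, against 112 to 152 CPM in the 6 mice compared, and goes against the stated sex. In whole liver, fewer cells of a type and less RNA per cell cannot be told apart.

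The vector's transcript was present in each treated liver. Its level (hLIPA) was 1316 CPM in mouse 9, 2746 CPM in mouse 11 and 523 CPM in mouse 12. In the WT mice, hLIPA was at 0.059 CPM (1 read), 0.906 CPM (23 reads) and 0. The difference was 12.10 on the log2 scale (SE 1.24, adjusted p = 0.0029). Per length, the transgene reached 1470, 2493 and 519 TPM, the share of all transcripts corrected for length, in the 3 treated mice, which is 13.0, 22.1 and 4.59 times the mean Lipa TPM of the WT mice (113 ± 26.3, SD, n = 3). The treated livers thus spanned a range of transgene RNA in which mouse 12 was the lowest and mouse 11 the highest.

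The murine Lipa gene (GRCm39, chr19:34469712-34522163, minus strand) was next examined. Its levels were 308, 283 and 323 CPM in WT mice 1 to 3 and 29.1, 31.2 and 30.3 CPM in treated mice 9, 11 and 12. The fold change was -3.33 (SE 0.226, adjusted p = 8.09e-07). On the TPM scale, Lipa was 12.2 ± 0.974 (SD, n = 3) in treated and 11.1 ± 1.37 in untreated Lipa-/- livers, or 0.108 and 0.0984 of the WT mean. Reads counted to the murine gene thus remained in knockout livers, with or without the vector. A separate entry of the count table, Lipa.delta4, held 0 reads in each of these treated and untreated mice. It held 0, 4 and 8 reads in WT mice 1 to 3, so it did not mark the knockout livers.

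Beside these checks of genotype and vector, few genes separated treated from WT livers. In all, 32 of 14533 genes were called (0.220%), hLIPA and Lipa included, 19 of them higher (0.131%) and 13 lower (0.0895%) in treated mice. At an unadjusted p under 0.05 there were 837 genes, 527 higher and 310 lower, and the median fold change of all genes was 0.0025. In each of the 32 called genes, all 3 treated mice lay on 1 side of all 3 WT mice, which was the case for 4.78% of all genes in the higher and 4.11% in the lower direction. Set beside this, untreated Lipa-/- mice with the same time label differed from the same WT mice in 5272 genes (36.3%). DESeq2 on the same 18 mice called 85 genes (0.585%), among them all 32.

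**Figure D1:**
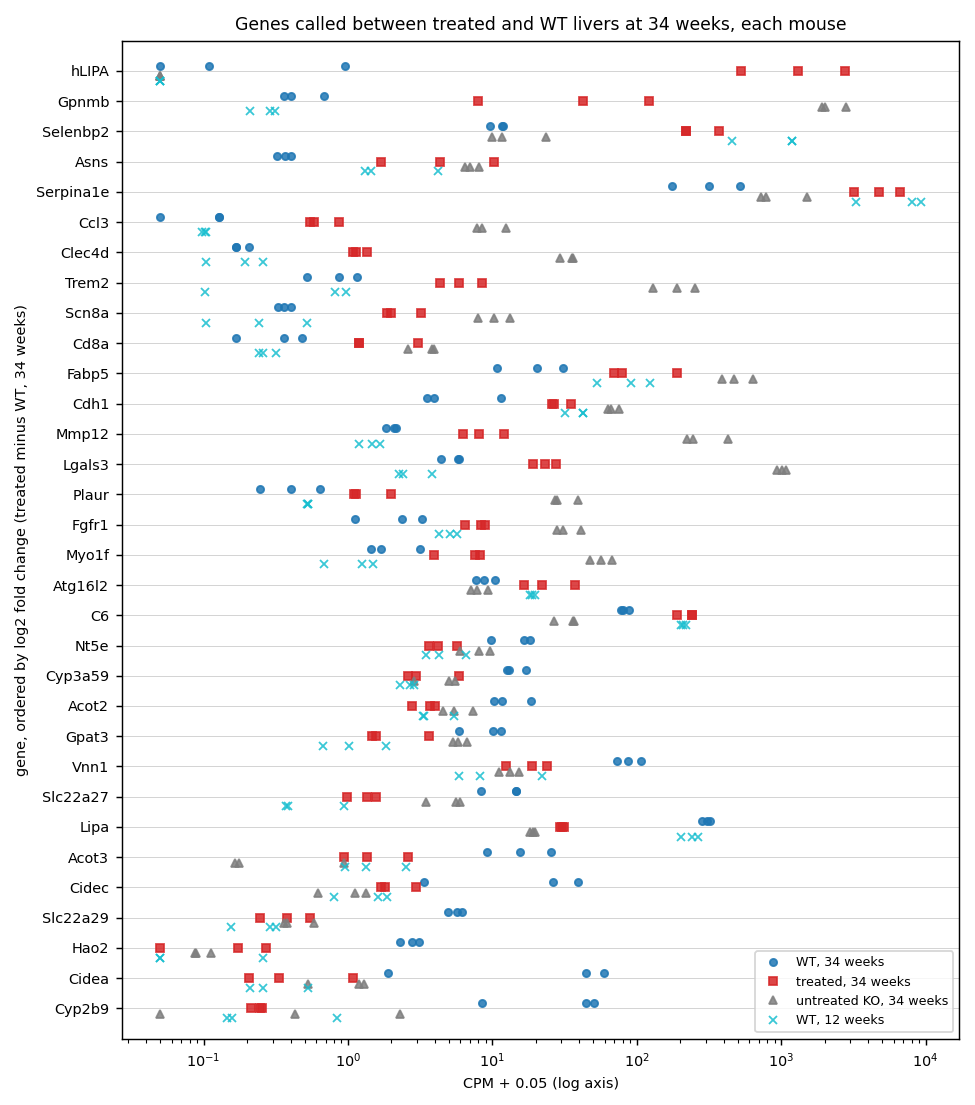
Level of each of the 32 called genes in each mouse, as CPM + 0.05 on a log axis, for WT (circles), treated (squares) and untreated Lipa-/- mice (triangles) at 34 weeks and for WT mice at 12 weeks (crosses). The treated squares lie apart from the WT circles in each row, and for Gpnmb, Trem2, Mmp12 and Lgals3 they lie between the circles and the triangles.

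The number of calls depended on single animals. It was 31 without WT mouse 1, 17 without WT mouse 2 and 6 without WT mouse 3. For the treated mice, it was 14 without mouse 9, 27 without mouse 11 and 20 without mouse 12. In that order, 23, 15, 6, 14, 23 and 16 of these calls were among the 32. Without untreated mouse 4, 22 genes were called, all of them among the 32, and the 10 lost were Cd8a, Fabp5, Plaur, Myo1f, C6, Cyp3a59, Gpat3, Acot3, Hao2 and Cidea. The 6 genes called whichever of the 6 mice was left out were hLIPA, Lipa, Gpnmb, Selenbp2, Slc22a27 and Slc22a29. With 3 mice against 3, an exact permutation test of a single gene cannot go below p = 0.1, so these calls rest on the spread shared across genes in the edgeR model.

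Genes of lipid-associated macrophages, the phagocytes that take up and degrade lipid and cell debris, formed the largest group of genes higher in treated mice. Of the 28 tested members of this list, 5 were called higher (Gpnmb, Trem2, Fabp5, Mmp12 and Lgals3) and 0 lower, and 14 lay wholly above and 3 wholly below the WT mice. The shares wholly above and below were 50% and 10.7%, against 4.78% and 4.11% of all genes, of which 0.131% were called higher. The median fold change of the list was 1.06, against 0.0025 over all genes, and 4.33 in untreated Lipa-/- mice, which are compared with the same WT animals.

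Gpnmb encodes a transmembrane glycoprotein of lysosomes that marks lipid-loaded macrophages (chr6:49013426-49047863, plus strand). It was at 0.354, 0.631 and 0.311 CPM in WT mice and at 121, 42.1 and 7.94 CPM in treated mice 9, 11 and 12. Gpnmb rose by 7.01 (SE 0.858, adjusted p = 0.00147). In untreated Lipa-/- livers the gene stood at 2815, 1912 and 2012 CPM, so the lowest untreated mouse was above the highest treated mouse by an order of magnitude, while the treated mice themselves ranged widely.

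Trem2, the lipid-sensing receptor of these cells, was at 0.472, 1.10 and 0.817 CPM in WT mice and at 8.45, 4.26 and 5.84 CPM in treated mice. It rose by 2.92 (SE 0.522, adjusted p = 0.0259), a call that was lost without any 1 of the mice except treated mouse 11. Untreated Lipa-/- mice had 190, 251 and 129 CPM. Lgals3, which encodes the damage-sensing lectin galectin-3, was at 5.78, 5.75 and 4.32 CPM in WT and at 27.6, 19.1 and 23.2 CPM in treated mice. The rise of Lgals3 was 2.14 (SE 0.294, adjusted p = 0.00297), with an adjusted p of 0.0525 without WT mouse 3. The 3 mice of each group lay close together in Lgals3, unlike Gpnmb.

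Mmp12, the macrophage elastase, stood at 1.77, 2.09 and 2.02 CPM in WT mice and at 12.0, 7.98 and 6.19 CPM in treated mice, a rise of 2.15 (SE 0.330, adjusted p = 0.00874) that was not called without WT mouse 3. Fabp5, a fatty acid chaperone of macrophages and epithelia, was at 30.8, 10.8 and 20.2 CPM in WT and at 78.3, 69.6 and 191 CPM in treated mice. It rose by 2.46 (SE 0.478, adjusted p = 0.0478), and the call was lost without WT mouse 2, WT mouse 3, treated mouse 9 or treated mouse 12. Mmp12 was again far higher in untreated Lipa-/- mice, at 425, 224 and 244 CPM, and Fabp5 reached 471, 635 and 390 CPM there.

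Among the members that edgeR did not call, Cd68, the endolysosomal glycoprotein by which macrophages are stained, was at 6.49, 8.51 and 6.38 CPM in WT and at 16.8, 11.8 and 16.7 CPM in treated mice, with a fold change of 1.08 and an adjusted p of 0.404. The tetraspanin gene Cd63 was at 11.2, 7.61 and 7.98 CPM in WT and at 24.2, 19.995 and 28.8 CPM in treated mice (adjusted p = 0.207). For Lpl, the lipoprotein lipase, the levels were 17.3, 17.97 and 14.9 CPM against 37.5, 28.3 and 47.7 CPM (fold change 1.18, adjusted p = 0.103). These genes did not overlap between the groups, and DESeq2 called Cd63 and Lpl but not Cd68. The 3 members wholly below WT were Plin2, Cd36 and Lgals1, of which Plin2 and Cd36 are also expressed by hepatocytes.

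Further called genes of myeloid cells lay outside this list. Clec4d, a C-type lectin receptor of macrophages and neutrophils, was at 0.118, 0.158 and 0.117 CPM in WT and at 1.30, 1.04 and 1.09 CPM in treated mice (log2 fold change 3.06, SE 0.540, adjusted p = 0.0239). Ccl3, a chemokine that attracts monocytes and lymphocytes, had 4 reads in the 3 WT libraries and 43 in the 3 treated ones, a ratio of 10.7 with a 95% counting interval of 4.16 to 39.1. Plaur, the receptor of the plasminogen activator urokinase, rose by 1.83 (SE 0.362, adjusted p = 0.0481) from 0.195 to 0.591 CPM in WT to 1.06 to 1.95 CPM in treated mice. Myo1f, a myosin of leukocytes, rose by 1.67 (SE 0.326, adjusted p = 0.0481), from 1.40 to 3.11 CPM to 3.88 to 8.21 CPM. These 4 genes are low, and all 4 calls were lost without treated mouse 12 or WT mouse 3. The calls of Clec4d, Plaur and Myo1f were also lost without WT mouse 1 or treated mouse 9, those of Clec4d and Ccl3 without WT mouse 2, and that of Plaur without treated mouse 11.

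Genes of resident macrophages did not separate the groups, but the treated mice differed among themselves. Of 16 tested Kupffer cell genes, 0 were called by edgeR or DESeq2, 0 had an unadjusted p under 0.05 and 0 separated the groups, with a median of -0.129. Relative to the WT mean, the per-mouse medians of the list were -0.719, -0.480 and 0.623 in treated mice 9, 11 and 12. Without mouse 12, 4 of the 16 genes (25%) lay wholly below WT, against 9.94% of all genes. Clec4f, which marks the Kupffer cells of mice, was at 160, 113 and 69.5 CPM in WT and at 58.2, 80.1 and 178 CPM in treated mice. In untreated Lipa-/- mice it was at 33.8, 17.4 and 0.221 CPM, below each of the 6 mice compared.

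Transcripts of T and natural killer (NK) cells also stood above WT, while those of B and plasma cells did not. In the list of T and NK cell genes, 1 of 19 tested members was called, Cd8a, which encodes the co-receptor of cytotoxic T cells. Its levels were 0.118, 0.434 and 0.311 CPM in WT mice and 1.14, 1.15 and 3.00 CPM in treated mice, a rise of 2.55 (SE 0.466, adjusted p = 0.0309) that was lost without WT mouse 1, 2 or 3 or treated mouse 12. Of the 19 members, 10 lay wholly above and 0 wholly below WT, and the list's median was 1.59, or 0.947 without treated mouse 12. The members wholly above were 52.6% of the list, against 4.78% of all genes.

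The chemokine Ccl5, made by T and NK cells, was at 1.12, 1.46 and 0.856 CPM in WT and at 2.72, 3.39 and 9.73 CPM in treated mice (fold change 2.20, adjusted p = 0.128). Cd4, the co-receptor of helper T cells that some macrophages also carry, was at 0.708, 1.22 and 0.545 CPM in WT and at 4.27, 4.32 and 2.30 CPM in treated mice (adjusted p = 0.481). Summed over the list, T and NK cell genes gave 10.0 to 17.6 CPM in WT and 22.0 to 44.5 CPM in treated mice, against 57.2 to 93.3 CPM in untreated Lipa-/- mice. The summed ranges of WT and treated mice did not overlap, and mouse 12 was the highest treated mouse.

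Among chemokines and their receptors, 1 of 27 was called (Ccl3) and 8 lay wholly above WT, with a list median of 0.925 that came to 0.259 without mouse 12. These 8 were 29.6% of the list, against 4.78% of all genes. Cxcl9, an interferon-induced ligand that draws in T cells, was at 5.49, 9.22 and 9.93 CPM in WT and at 15.7, 23.1 and 14.9 CPM in treated mice (fold change 1.12, adjusted p = 0.670). Neither edgeR nor DESeq2 called any of 32 interferon-stimulated genes (4 higher at an unadjusted p under 0.05, median 0.452) or of 16 B and plasma cell genes (1 lower at that p, median 0.0207).

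Neutrophil genes differed in 1 animal rather than between the groups. Summed over 14 tested genes, they gave 11.0 to 70.6 CPM in WT mice, 23.9 CPM in treated mouse 9, 10.2 CPM in treated mouse 11 and 1045 CPM in treated mouse 12. S100a8, a subunit of the neutrophil protein calprotectin, was at 1.95, 1.18 and 0.311 CPM in WT and at 0.772, 0.929 and 226 CPM in treated mice. The granule protein gene Camp had 0 reads in the WT mice and in treated mice 9 and 11, and 84.0 CPM in mouse 12. None of the 14 genes was called by edgeR, 10 had an unadjusted p under 0.05, and the list median of 6.34 came to -0.198 without mouse 12. DESeq2 called 5 of the 14 higher, among them Camp, which was at least 238-fold higher over the pooled floor of the WT group. Untreated Lipa-/- mice reached sums of 1553 to 3315 CPM. Mouse 12 was also the treated mouse with the least transgene RNA, and the part of either in its other values was not tested.

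**Figure D2:**
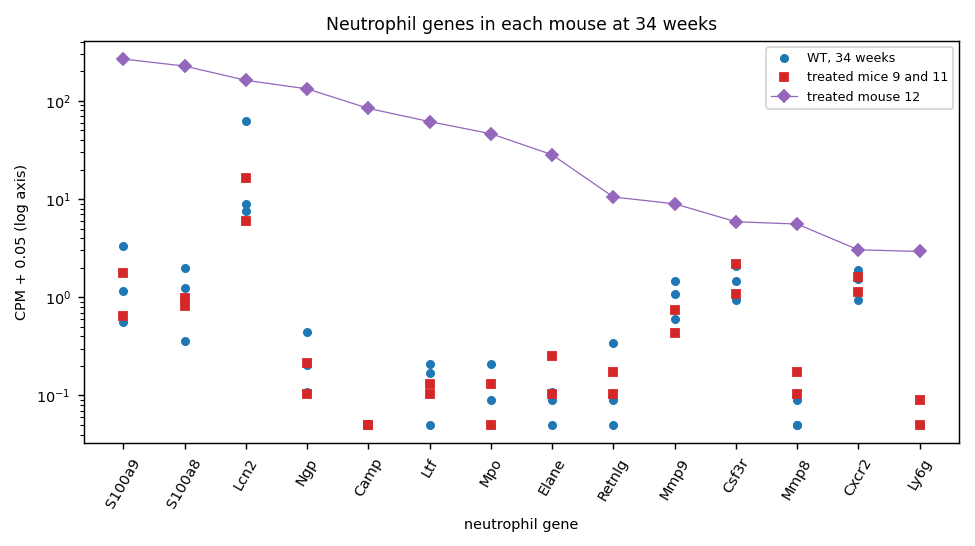
Level of the 14 neutrophil genes, as CPM + 0.05 on a log axis, in WT mice (circles), treated mice 9 and 11 (squares) and treated mouse 12 (diamonds joined by a line) at 34 weeks. Treated mice 9 and 11 lie near the WT mice. Both lie above all WT mice in 1 gene (7.14%), against 11% of all genes. Mouse 12 lies above these mice for each gene, at 226 CPM for S100a8.

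Genes of fatty acid oxidation and other targets of PPARA were lower in treated than in WT livers as a list. PPARA binds the promoters of these genes together with the retinoid X receptor, and fasting, exercise and fatty acids raise their transcription. Of 41 tested members, 3 were called lower (Vnn1, Acot2 and Acot3) and 0 higher, 21 lay wholly below and 0 wholly above the WT mice, and 39 had a negative fold change. These 21 were 51.2% of the list, against 4.11% of all genes. The median was -0.644, with per-mouse medians of -0.868, -0.349 and -0.781 relative to the WT mean in treated mice 9, 11 and 12 and of -0.0617, -0.0920 and 0.118 in the WT mice. Summed levels were 16960 to 20210 CPM in WT, 10270 to 14840 CPM in treated and 2658 to 3569 CPM in untreated Lipa-/- mice. Without mouse 12, 21 members again lay wholly below WT, when 9.94% of all genes did so, and scaling by RLE factors, the upper quartile or total counts gave 20, 21 and 24.

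**Figure D3:**
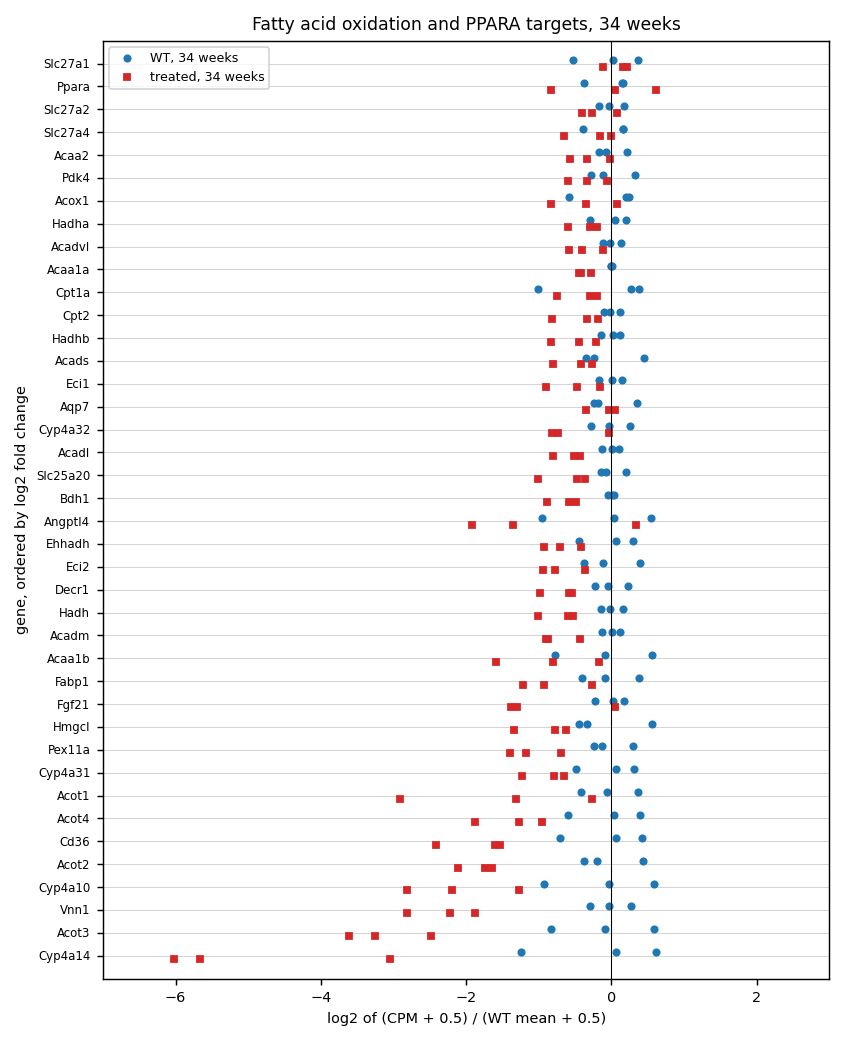
Genes of fatty acid oxidation and PPARA targets, all but 1 of the 41 tested, with each mouse shown as the log2 ratio of CPM + 0.5 to the WT mean + 0.5, with WT mice as circles and treated mice as squares, ordered by fold change. Most squares lie left of the circles, from small shifts in the mitochondrial enzymes to a fold change of -4.31 in Cyp4a14.

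Vnn1, a pantetheinase that is among the strongest hepatic PPARA targets, was at 72.8, 87.1 and 108 CPM in WT mice and at 18.7, 23.9 and 12.3 CPM in treated mice. It fell by 2.29 on the log2 scale (SE 0.384, adjusted p = 0.0156), and the call was lost without WT mouse 3, treated mouse 9 or treated mouse 12. Acot2, a mitochondrial acyl-CoA thioesterase, was at 10.2, 11.6 and 18.3 CPM in WT and at 3.94, 3.66 and 2.72 CPM in treated mice. Its fold change was -1.96 (SE 0.320, adjusted p = 0.0126), lost without the same 3 mice as for Vnn1. Acot3, a peroxisomal member of the family, was at 9.08, 15.6 and 25.2 CPM in WT and at 1.30, 2.57 and 0.895 CPM in treated mice, a fold change of -3.40 (SE 0.672, adjusted p = 0.0481) that was called with all mice and without WT mouse 1 only. Acot2 and Acot3 are paralogues that lie 58.3 kb apart on chromosome 12 (chr12:84034428-84040647 and chr12:84098918-84107176, both plus strand), so reads could be split between them and their separate values are uncertain.

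The untreated Lipa-/- mice were lower still in Acot3 (0.126, 0.116 and 0.882 CPM) and near the treated mice in Vnn1 (13.1, 15.2 and 11.1 CPM). Cyp4a14, a fatty acid omega-hydroxylase and a classic PPARA target, had the largest decrease of the list without being called: 143, 354 and 522 CPM in WT and 4.76, 40.6 and 6.23 CPM in treated mice (fold change -4.31, adjusted p = 0.418). Cd36, the fatty acid translocase, was at 84.9, 146 and 187 CPM in WT and at 45.6, 47.6 and 25.6 CPM in treated mice (fold change -1.82, adjusted p = 0.103), and DESeq2 called it. The mitochondrial enzymes differed by less. Acadm, the medium-chain acyl-CoA dehydrogenase, was at 457, 384 and 424 CPM in WT and at 231, 312 and 227 CPM in treated mice (fold change -0.72, adjusted p = 0.404). Ppara itself was at 23.8, 34.5 and 34.8 CPM in WT and at 47.9, 32.2 and 17.2 CPM in treated mice, so the groups overlapped.

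The promoters of these genes were read from RefSeq sequences of GRCm38.p6, which cover 250 bases before and 50 bases after the start of a transcript, and searched on both strands for the PPAR motif AGGNCANAGGNCA. It was found in 0.381% of 32851 promoters, in 1 of 36 promoters of the list (Fabp1) and in 0 promoters of the called genes. The promoters of Acot2 and Acot3 are shown because both genes were called, and that of Fabp1, which encodes the liver's fatty acid binding protein, because it holds the match, in capitals as it reads on the printed strand. The windows are chr12:83987611-83987910 (plus strand), chr12:84051894-84052193 (plus strand) and chr6:71199629-71199928 (plus strand).
Acot2: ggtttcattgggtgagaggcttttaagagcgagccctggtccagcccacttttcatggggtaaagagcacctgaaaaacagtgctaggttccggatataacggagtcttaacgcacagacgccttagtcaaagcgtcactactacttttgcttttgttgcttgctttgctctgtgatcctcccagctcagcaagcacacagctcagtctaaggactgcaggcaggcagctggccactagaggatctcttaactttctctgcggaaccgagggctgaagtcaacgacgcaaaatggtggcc
Acot3: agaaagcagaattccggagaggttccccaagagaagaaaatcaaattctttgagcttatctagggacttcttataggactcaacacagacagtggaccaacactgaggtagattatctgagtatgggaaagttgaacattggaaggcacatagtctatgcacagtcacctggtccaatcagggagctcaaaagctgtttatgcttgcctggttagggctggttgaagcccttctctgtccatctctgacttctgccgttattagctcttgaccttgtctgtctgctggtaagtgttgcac
Fabp1: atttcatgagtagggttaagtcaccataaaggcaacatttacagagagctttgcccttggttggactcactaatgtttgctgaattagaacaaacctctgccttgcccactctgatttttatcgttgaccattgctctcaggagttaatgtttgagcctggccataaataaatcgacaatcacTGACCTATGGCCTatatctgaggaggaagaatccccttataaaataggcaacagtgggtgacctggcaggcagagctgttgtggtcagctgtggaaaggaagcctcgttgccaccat
Fabp1, the gene with the match, had a fold change of -0.74 and an adjusted p of 0.819.

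The called lipid droplet genes varied widely among the WT mice. Of 28 tested genes of lipases and lipid droplets, 2 were called lower and 0 higher, 9 lay wholly below and 3 wholly above WT, and the median was -0.316. The shares wholly below and above were 32.1% and 10.7%, against 4.11% and 4.78% of all genes, of which 0.0895% were called lower. Cidec, a droplet protein that fuses droplets into larger ones, was at 3.30, 26.4 and 39.0 CPM in WT mice and at 1.75, 2.90 and 1.63 CPM in treated mice (fold change -3.46, SE 0.642, adjusted p = 0.0328). Its relative Cidea was at 1.83, 59.1 and 44.4 CPM in WT and at 0.285, 1.04 and 0.156 CPM in treated mice (fold change -6.23, SE 1.16, adjusted p = 0.0328). For both, WT mouse 1 lay near the treated mice and WT mice 2 and 3 far above, and each call was lost without any 1 of the mice except WT mouse 1. Untreated Lipa-/- mice were at 0.568, 1.28 and 1.07 CPM for Cidec and at 1.14, 1.24 and 0.478 CPM for Cidea.

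Plin2, the main droplet coat protein of hepatocytes, was at 856, 797 and 860 CPM in WT and at 480, 546 and 391 CPM in treated mice (fold change -0.83, adjusted p = 0.495). G0s2, an inhibitor of the triglyceride lipase ATGL, was at 668, 227 and 195 CPM in WT and at 102, 166 and 86.6 CPM in treated mice (fold change -1.62, adjusted p = 0.582). Gpat3, which acylates glycerol phosphate at the start of triglyceride synthesis, was called: it was at 5.78, 10.1 and 11.5 CPM in WT and at 1.50, 1.42 and 3.58 CPM in treated mice, a fold change of -2.06 (SE 0.407, adjusted p = 0.0481) that was lost without WT mouse 2, WT mouse 3, treated mouse 9 or treated mouse 11. Gpat3 was the 1 called gene among the 32 tested genes of fatty acid and triglyceride synthesis, whose median was -0.0609.

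Genes whose expression in mouse liver differs between the sexes made up 8 of the 32 calls. The male pattern of growth hormone pulses, acting through STAT5, sustains male-biased genes and holds female-biased genes low. Of 37 tested male-biased genes, 3 were called higher and 0 lower in treated mice (Selenbp2, Serpina1e and C6), 11 lay wholly above and 1 wholly below WT, and the median was 0.711. Of 34 tested female-biased genes, 5 were called lower and 0 higher (Cyp2b9, Hao2, Slc22a27, Acot3 and Nt5e), 13 lay wholly below and 1 wholly above WT, and the median was -0.994. Y-linked transcripts were present in all 6 mice. Over all genes tested, 0.131% were called higher and 0.0895% lower, and 4.78% lay wholly above and 4.11% wholly below WT. The calls of C6, Hao2 and Acot3 were lost without untreated mouse 4, which lacks Y-linked reads (adjusted p = 0.0554, 0.0784 and 0.0554). The medians moved with single WT mice: without WT mouse 1 they were 1.19 and -1.34, and without WT mouse 3 the female-biased median was -0.580. Relative to the WT mean, the male-biased medians were 0.568, -0.71 and -0.146 in WT mice 1 to 3. In treated mice 9, 11 and 12 they were 0.520, 0.918 and 0.204. The female-biased medians were -0.595, 0.0530 and 0.295 in WT and -0.549, -0.757 and -0.98 in treated mice. WT mouse 1 thus lay within the range of the treated mice in both lists, apart from WT mice 2 and 3.

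**Figure D4:**
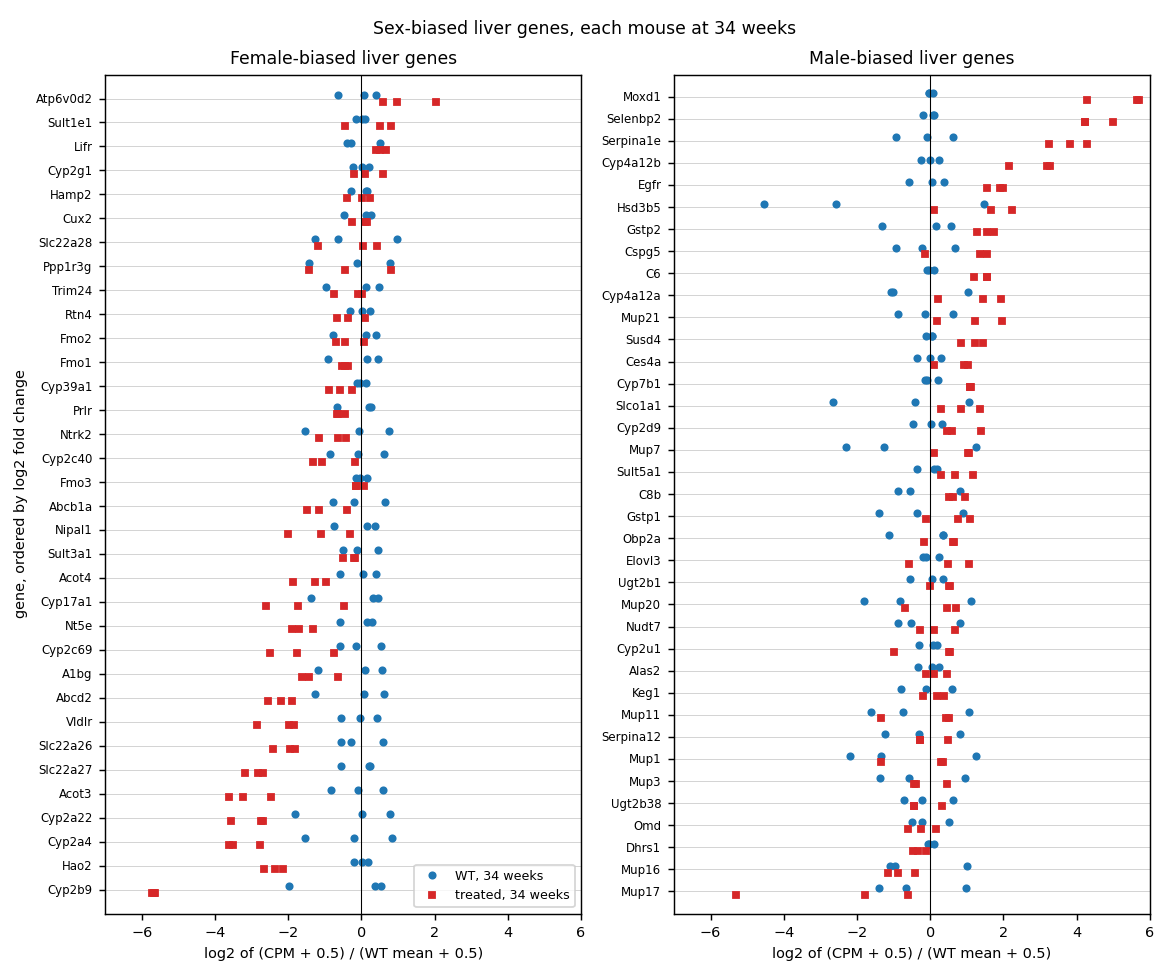
Female-biased (left, 34 tested) and male-biased liver genes (right, 37 tested), each mouse at 34 weeks as the log2 ratio of CPM + 0.5 to the WT mean + 0.5, with WT mice as circles and treated mice as squares. Among female-biased genes the squares of Cyp2b9, Hao2 and Slc22a27 lie far left, and among male-biased genes those of Moxd1, Selenbp2 and Serpina1e lie far right, while the WT circles of the Mup genes spread as widely as the squares.

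Selenbp2, a selenium-binding protein of male liver (chr3:94600863-94611720, plus strand), was at 11.7, 9.54 and 11.8 CPM in WT mice and at 369, 218 and 217 CPM in treated mice. It rose by 4.60 (SE 0.520, adjusted p = 0.000762) and was called under each of the 19 alternatives run for it. Untreated Lipa-/- mice were at 11.6, 9.82 and 23.3 CPM, in the range of the WT mice, and WT mice at 12-weeks were at 1185, 1197 and 460 CPM, above the treated mice. The gene has a near-identical paralogue, Selenbp1, between which reads could be split.

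Serpina1e, which encodes an alpha-1 antitrypsin, was at 519, 317 and 175 CPM in WT and at 4766, 6620 and 3208 CPM in treated mice. It rose by 3.85 (SE 0.567, adjusted p = 0.00633), a call lost without WT mouse 3, and it belongs to a cluster of near-identical genes, so its own share of the reads is uncertain. C6, a component of the complement membrane attack complex, rose by 1.45 (SE 0.272, adjusted p = 0.0357) from 88.5, 77.9 and 80.1 CPM to 243, 241 and 188 CPM. The C6 call was lost without each of the 6 mice in turn, although the 3 mice of each group lay close together.

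Cyp4a12b, a male-specific hydroxylase, was at 12.6, 8.83 and 10.5 CPM in WT and at 107, 102 and 48.8 CPM in treated mice (fold change 3.01, adjusted p = 0.144). Cyp7b1, the oxysterol hydroxylase, was at 112, 91.5 and 87.6 CPM in WT and at 205, 205 and 209 CPM in treated mice (fold change 1.09, adjusted p = 0.239). Moxd1, a monooxygenase relative that is high in male liver, was at 0, 0 and 0.0389 CPM in WT and at 25.5, 9.56 and 26.0 CPM in treated mice. Over the group this is 1 read against 1471, a ratio of 1458 with a counting interval of 262 to 57600. DESeq2 called all 3 genes and edgeR none of them, with an adjusted p of 0.0981 for Moxd1.

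Among the female-biased genes, Cyp2b9 was at 8.43, 50.7 and 44.6 CPM in WT and at 0.203, 0.164 and 0.195 CPM in treated mice (fold change -7.48, SE 1.15, adjusted p = 0.0126). The treated libraries held 13 of its reads against 2576 in the WT libraries, and the call was lost without WT mouse 3 or any 1 of the treated mice. Hao2, a peroxisomal hydroxyacid oxidase, had 7 reads in the treated and 182 in the WT libraries, a ratio of 26.2 with an interval of 12.7 to 65.2, and its call (adjusted p = 0.0481) was lost without each of the 6 mice in turn. Nt5e, the ecto-nucleotidase CD73, was at 9.73, 18.3 and 16.5 CPM in WT and at 3.58, 5.63 and 4.16 CPM in treated mice (fold change -1.74, SE 0.311, adjusted p = 0.0259), and its call was lost without WT mouse 2, WT mouse 3, treated mouse 9 or treated mouse 12. Cyp2b9 was thus at about the floor of detection in treated mice, and WT mouse 1 was the lowest WT mouse for it and for Nt5e.

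Slc22a27 and Slc22a29, organic anion transporters that are neighbours 193.6 kb apart on the minus strand of chromosome 19 (chr19:7841301-7943962 and chr19:8137529-8230661), were the decreases, besides Lipa, that were called whichever of the 6 mice was left out. Slc22a27 was at 8.32, 14.6 and 14.4 CPM in WT and at 0.935, 1.31 and 1.52 CPM in treated mice, a fold change of -3.31 (SE 0.412, adjusted p = 0.00147). Slc22a29 was at 4.90, 5.64 and 6.07 CPM in WT and at 0.325, 0.492 and 0.195 CPM in treated mice, a fold change of -4.05 (SE 0.525, adjusted p = 0.00203). Untreated Lipa-/- mice were at 5.52, 3.44 and 5.92 CPM for Slc22a27, between WT and treated mice. As paralogues, the 2 genes could share reads.

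Genes of the growth hormone axis itself gave 0 called members of 20 by edgeR or DESeq2 and 0 at an unadjusted p under 0.05, with a median of 0.190 and 0 members that separated the groups. Igf1, the hormone's main hepatic target, was at 413, 369 and 394 CPM in WT and at 352, 455 and 570 CPM in treated mice, and Bcl6, a repressor of female-biased genes, was at 43.1, 67.9 and 8.84 CPM against 106, 29.9 and 5.68 CPM. Both overlapped between the groups.

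The STAT motif TTCNNNGAA was searched in the same promoters on both strands. It was found in 8.3% of all promoters, in 2 of 30 promoters of male-biased genes (Keg1 and Moxd1), in 6 of 37 promoters of female-biased genes and in 0 promoters of the called genes. The promoter of Moxd1 (chr10:24223267-24223566, plus strand, GRCm38.p6) is shown as that of the male-biased gene with the largest fold change, 9.97, with the match in capitals.
Moxd1: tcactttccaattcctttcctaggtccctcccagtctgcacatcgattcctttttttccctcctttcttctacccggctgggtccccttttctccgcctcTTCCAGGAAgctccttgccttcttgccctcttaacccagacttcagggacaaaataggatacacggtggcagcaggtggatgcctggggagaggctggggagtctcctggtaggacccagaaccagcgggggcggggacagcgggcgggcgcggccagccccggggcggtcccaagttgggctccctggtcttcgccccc

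The remaining called genes belonged to no common group. Asns, the asparagine synthetase that the integrated stress response induces, was at 0.354, 0.315 and 0.272 CPM in WT mice and at 4.27, 1.64 and 10.2 CPM in treated mice. It rose by 4.10 (SE 0.652, adjusted p = 0.0114), lost without WT mouse 2 or WT mouse 3, and was at 6.37, 6.92 and 8.05 CPM in untreated Lipa-/- mice. It was the 1 called gene among 31 tested genes of the unfolded protein and integrated stress responses, whose median was 0.0247. Its promoter (chr6:7693160-7693459, minus strand, GRCm38.p6) is shown because it held, alone among the promoters of called genes, a match to TGATGNAA, the motif of the factor ATF4 with its partners, which 3.97% of all promoters hold on 1 of the strands.
Asns: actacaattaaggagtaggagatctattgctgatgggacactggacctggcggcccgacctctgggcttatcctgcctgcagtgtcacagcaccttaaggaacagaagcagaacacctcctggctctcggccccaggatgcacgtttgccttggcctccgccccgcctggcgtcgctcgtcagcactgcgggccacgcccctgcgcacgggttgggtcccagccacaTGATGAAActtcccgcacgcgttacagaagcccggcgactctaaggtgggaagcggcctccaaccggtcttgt

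Cdh1, the epithelial cadherin, was at 11.4, 3.90 and 3.46 CPM in WT and at 34.8, 25.8 and 26.8 CPM in treated mice (fold change 2.23, SE 0.376, adjusted p = 0.0156). Fgfr1, a receptor of fibroblast growth factors, was at 1.06, 3.19 and 2.30 CPM in WT and at 8.33, 8.85 and 6.46 CPM in treated mice (fold change 1.83, SE 0.292, adjusted p = 0.0114). Scn8a, a voltage-gated sodium channel that macrophages also express, was at 0.354, 0.276 and 0.311 CPM in WT and at 3.17, 1.80 and 1.95 CPM in treated mice (fold change 2.87, SE 0.442, adjusted p = 0.00874). The 3 genes were higher again in untreated Lipa-/- mice, at 63.1 to 75.3 CPM for Cdh1, 27.7 to 40.8 CPM for Fgfr1 and 7.95 to 13.2 CPM for Scn8a. The calls of all 3 were lost without WT mouse 3, those of Cdh1 and Scn8a also without WT mouse 2, and that of Cdh1 also without treated mouse 9.

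Atg16l2, a relative of an autophagy conjugation factor, was at 8.67, 7.65 and 10.4 CPM in WT and at 37.6, 22.1 and 16.4 CPM in treated mice (fold change 1.51, SE 0.277, adjusted p = 0.0309). Its level in untreated Lipa-/- mice, 7.03 to 9.31 CPM, was near that of WT mice, and the call was lost without treated mouse 9 or any 1 of the WT mice. Cyp3a59, a drug-metabolising P450 with close paralogues, was at 12.5, 16.99 and 13.0 CPM in WT and at 2.89, 2.57 and 5.80 CPM in treated mice (fold change -1.91, SE 0.379, adjusted p = 0.0491), and its call held with all mice and without treated mouse 12 only. It was 1 of 2 called genes among 37 tested xenobiotic P450 genes, of which 10 lay wholly below and 2 wholly above WT. The shares were 27% and 5.41%, against 4.11% and 4.78% of all genes.

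The other lists had few called members. Of 52 tested genes of lysosomal hydrolases and membrane proteins, which include the gene defective in the knockout, only Lipa was called, and the median was 0.0519, against 1.07 in untreated Lipa-/- mice. Stellate cell and matrix genes, the source of fibrous tissue, had 0 called members of 34 by edgeR and 1, lower, by DESeq2 (2 higher and 1 lower at an unadjusted p under 0.05), with a median of 0.370 against 3.35 in untreated mice. In this list, 7 members (20.6%) lay wholly above and 1 (2.94%) wholly below WT, against 4.78% and 4.11% of all genes. Without treated mouse 12, 15 members (44.1%) lay wholly above WT, against 11% of all genes. The fold changes of the list ran from -5.89 to 1.29, with 28 positive and 6 negative. Col3a1, a fibrillar collagen, was at 14.9, 22.9 and 21.7 CPM in WT and at 22.9, 23.4 and 30.5 CPM in treated mice. Col1a1, another, was at 3.60, 8.71 and 8.17 CPM in WT and at 18.4, 12.2 and 6.81 CPM in treated mice 9, 11 and 12.

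In the lists that follow, edgeR and DESeq2 called 0 genes, and an unadjusted p under 0.05 was reached by 1 gene each of cholesterol synthesis and the acute phase and by 0 genes of the others. Hepatocyte markers (23 tested) had a median of -0.0888 and genes of cholesterol synthesis (27 tested) of 0.323. Cell cycle genes had 0 called members of 25 and a median of 0.367, which came to -0.770 without treated mouse 12, and acute phase genes 0 of 24 and a median of 0.0542, which came to -0.546 without that mouse. For respiratory chain subunits, 0 of 46 were called and 0 separated the groups, although all 46 fold changes were negative (median -0.291). Their sum was 16150 CPM in WT mouse 1 against 9040 and 9783 CPM in WT mice 2 and 3. In treated mice 9, 11 and 12 it was 7114, 10590 and 10570 CPM. WT mouse 1 thus lay above, and treated mouse 9 below, the other mice compared.

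**Figure D5:**
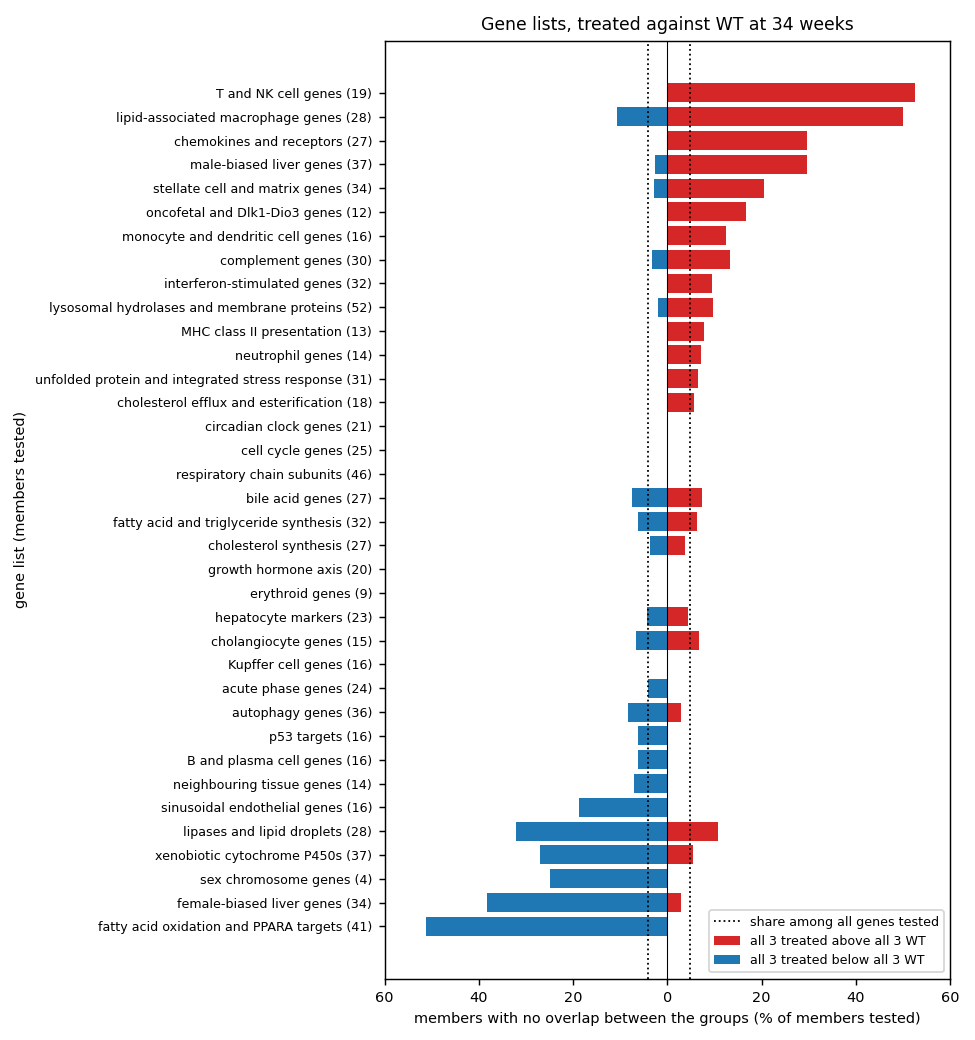
Share of the tested members of each of the 36 gene lists (percent, number tested in brackets) for which all 3 treated mice lay above (right) or below (left) all 3 WT mice at 34 weeks, with the shares among all genes, 4.78% and 4.11%, as dotted lines. T and NK cell genes (52.6%) and lipid-associated macrophage genes (50%) reach furthest right, and fatty acid oxidation and PPARA targets (51.2%) furthest left.

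The same comparison at 12-weeks post-injection called 3713 genes (25.5%), and the difference between the 2 time points was tested as an interaction. The interaction called 2675 genes (18.4%), but this number fell to 1 without treated mouse 9 of 34-weeks, to 3 without WT mouse 3 of 12-weeks and to 6 when only the 12 mice of the 4 groups were fitted. Its split by direction, 1247 higher and 1428 lower, became 2271 and 522 with scaling by total counts. The mice of the 2 time points carry different study codes, so time and code cannot be told apart. Among the 32 genes, 17 were called in the interaction. The 32 were picked by their difference at 34-weeks, which is part of the interaction, so this number is not independent of the pick.

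Of the 28 lipid-associated macrophage genes, 13 were called lower and 0 higher in the interaction. Of all 14533 genes tested, 1428 were called lower and 1247 higher, 18.4% in both directions together. Trem2 was at 39.8, 28.0 and 13.8 CPM in treated mice at 12-weeks, against 4.26 to 8.45 CPM at 34-weeks, and the interaction was -2.63 (adjusted p = 0.0301). Lgals3 was at 69.3, 82.2 and 45.2 CPM at 12-weeks, with an interaction of -2.41 (adjusted p = 0.0168), and Mmp12 at 42.0, 24.2 and 20.2 CPM, with an interaction of -2.22 (adjusted p = 0.0237). For Gpnmb, at 146, 131 and 42.1 CPM in treated mice at 12-weeks, the interaction was -1.87 (adjusted p = 0.257), and for Fabp5 it was 1.12 (adjusted p = 0.209). Outside the list, the myeloid genes Plaur and Ccl3 had interactions of 0.23 and -0.08 (adjusted p = 0.775 and 0.955). In WT mice at 12-weeks, Trem2, Lgals3, Mmp12 and Gpnmb were between 0.0524 and 3.78 CPM.

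For a further set of the called genes, the WT level differed between the time points. By group means, treated mice of 34-weeks lay nearer to WT mice of 12-weeks than to those of 34-weeks in 10 of the 19 higher genes. The same held for all 13 lower genes, Lipa included. The genes had been picked for their distance from the WT mice of 34-weeks, which favours this. In Selenbp2, the treated mice stayed below the WT mice of 12-weeks, as given above. WT mice of 34-weeks against WT mice of 12-weeks, a comparison that shares the 3 older WT mice with the main one and so is not independent of it, called 47 genes (0.323%). Selenbp2 differed by -6.43 (adjusted p = 4.23e-05), Serpina1e by -4.35 (adjusted p = 0.00361) and Cdh1 by -2.65 (adjusted p = 0.00505) in this comparison. In the other direction, Slc22a27 differed by 4.59 (adjusted p = 0.000119), Slc22a29 by 4.72 (adjusted p = 0.000955), Vnn1 by 2.90 (adjusted p = 0.00377) and Gpat3 by 3.02 (adjusted p = 0.00505). Cidec, Cidea and Cyp2b9 differed by 4.05, 6.91 and 6.71 (adjusted p = 0.0151, 0.0217 and 0.0198).

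C6 differed by -1.35 (adjusted p = 0.0418), and Atg16l2, which was not called, by -1.07 (adjusted p = 0.123). C6 was at 209, 219 and 201 CPM in WT mice at 12-weeks and at 87.1, 156 and 226 CPM in treated mice at 12-weeks, against 77.9 to 88.5 CPM in WT and 188 to 243 CPM in treated mice at 34-weeks. Atg16l2 was at 18.1 to 19.6 CPM and at 17.98 to 21.6 CPM in WT and treated mice at 12-weeks, against 7.65 to 10.4 CPM in WT mice at 34-weeks. Vnn1 was at 5.84 to 21.9 CPM in WT and at 5.25 to 7.23 CPM in treated mice at 12-weeks, and the WT mice of 34-weeks, at 72.8 to 108 CPM, were above all of these. Treated mice of 34-weeks thus lay nearer to WT mice of 12-weeks than to WT mice of their own time point for these 3 genes.

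Genes that only DESeq2 called were taken by the size of its adjusted p. The first 10 were Fcnb, Camp, Moxd1, Cadm4, Cyp2a22, Adrb3, Pde2a, Gvin1, Gpx3 and Lpl. Fcnb, a ficolin of neutrophils, and Camp had reads in treated mouse 12 only among the 6 mice. Gpx3, the secreted glutathione peroxidase, was at 3.01, 5.44 and 3.00 CPM in WT and at 17.1, 9.40 and 11.2 CPM in treated mice, against 537 to 599 CPM in untreated Lipa-/- mice. Pde2a, a phosphodiesterase, had 15 reads in the treated and 340 in the WT libraries, a ratio of 22.9 with a counting interval of 13.9 to 40.9. In these genes the adjusted p depended on the tool, and in the neutrophil genes on 1 mouse.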

How the data were processed

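Liver polyA RNA of 18 mice was sequenced. Reads were quantified by the authors with Salmon against GRCm39 transcripts, and tximport gave gene values. The deposited estimated counts are not scaled, and 19.4% of the values are not whole. The deposited TPM values were computed by the authors within each mouse. The deposited gene lengths, in bases, served only as offsets. The authors' table of DESeq2 1.40.1 comparisons (log2 fold changes and p values, R 4.3.0) was not used.

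In R 4.3.3, counts were rounded, genes with more than 100 summed reads kept (14533; 20908 not tested), and edgeR 4.0.16 fitted 6 group means with TMM scaling and quasi-likelihood tests, with Benjamini-Hochberg adjustment over all genes. CPM used TMM factors (0.806 to 1.07 in the 6 mice). Depth was 17527848 to 25833134 reads over the 18 mice. Floors of 3 reads and 95% exact intervals cover counting error only. Alternatives were DESeq2 1.42.0, limma 3.58.1 on log2(TPM + 0.5), 3 other scalings, length offsets, filters, thresholds, fewer mice, a replicate block and each mouse left out. DESeq2 folds are not printed.

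Genes named were all called genes, Lipa, hLIPA, the first 10 genes called by DESeq2 only and up to 4 members of each list with the largest fold change at a mean of at least 1 CPM, besides cell type markers. Cd36, Cd68, Lgals1, Plin2, Col3a1, Keg1, Igf1, Bcl6, Ppara, Acadm and Fabp1 lie outside this rule and were chosen after their values were seen, and 1 list member is not reported here. The comparison and the 36 lists were chosen with earlier results of these data known, and lists are given as counts and medians without a test. The edgeR fit and test were tried on simulated counts with known fold changes. Positions are from GRCm39, and promoters from RefSeq (GRCm38.p6) were found for 26 of the 32 called genes.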

Additional observations from a re-analysis of the deposited data

Results flagged for a closer look

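For 17 of the 32 called genes, the difference between treated and WT mice at 34-weeks differed from the same difference at 12-weeks in the interaction test (adjusted p 0.0166 to 0.0301). The 32 genes were picked by the difference at 34-weeks, which the interaction contains, so a raised number of calls is in part built in. The values below are the difference at 34-weeks less that at 12-weeks, on the log2 scale, and come from 3 mice in each of 4 groups. Without treated mouse 9 of 34-weeks, the adjusted p of these genes was 0.054 to 0.075, so none passed the threshold.

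Genes with a positive value were Selenbp2 (4.28), Serpina1e (3.53), Fgfr1 (2.67), Cdh1 (2.10), C6 (1.87) and Atg16l2 (1.46). The hepatic genes with a negative value were Cidea (-7.46), Slc22a29 (-4.21), Slc22a27 (-3.82), Cidec (-3.70), Cyp3a59 (-2.96), Gpat3 (-2.48), Nt5e (-1.99) and Acot2 (-1.87). The macrophage genes with a negative value were Trem2 (-2.63), Lgals3 (-2.41) and Mmp12 (-2.22), which were above WT at both time points and by more at 12-weeks.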

How the results depend on the processing

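Against 32 genes called in the main comparison, DESeq2 called 85 with all 18 mice (59 higher, 26 lower, all 32 shared) and 80 with the 6 mice alone (30 shared), edgeR with the 6 mice alone called 9 (7 shared), limma on log2 TPM 21 (18 shared), and an adjusted p under 0.01 left 10. Other scalings, length offsets and filters gave 22 to 47. Leaving out 1 of the 6 mice gave 6 to 31. Against the interaction's 2675 calls, there were 3572 with DESeq2, 0 at an adjusted p under 0.01, 6 with the 12 mice alone and 0 with a replicate block on the mouse number in those 12, and leaving out 1 mouse gave 1 to 3450. The causes of these changes were not tested. Mouse numbers did not pair the samples: same-numbered mice correlated in their deviations at 0.0763, -0.24 and 0.46 in WT and at -0.077 and -0.253 in treated mice. No paired analysis was possible for the main comparison because its groups share no mouse numbers. Leaving out untreated mouse 4, added after seeing the data, gave 22 and 2178 calls. Over all alternatives, hLIPA, Selenbp2, Slc22a27 and Lipa were called each time, and of the values of called genes under the alternatives, 413 kept direction and call, 195 lost the call and 0 reversed. Depth limits the low genes, since 3 reads are 0.117 to 0.177 CPM.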
